A study of Homo sapiens with 18 samples.

Results

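The 10 genes described here encode cell adhesion molecules of the nervous system, and they were picked by name from the 57445 genes of a count table of pancreatic cancer cells. They are L1CAM, NRCAM, CHL1 and NFASC of the L1 family, NCAM1, the immunoglobulin adhesion molecules ALCAM, CADM1 and MCAM, the teneurin TENM2, and the guidance receptor NEO1. All 10 had an entry in the table, and 7 held enough counts to be tested. CHL1, NCAM1 and CADM1 did not.

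Neural adhesion molecules are membrane proteins that hold neurites, glia and their surroundings together. The L1 family proteins bind each other through immunoglobulin and fibronectin domains outside the cell, and bind ankyrins and ezrin-family proteins inside it, which ties contact to the cytoskeleton. Schwann cells and axons of a peripheral nerve carry several of these molecules, and L1CAM is known from earlier work in pancreatic cancer as a molecule of tumour cells that grow along nerves.

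The study asked how the transcriptome of MiaPaCa-2 cells, an established human pancreatic carcinoma line, differs after growth in a nerve. Cells were injected into the sciatic nerve, recovered and grown in vitro, and part of the recovered leader cells was injected again, for 4 passages in all. There were 18 libraries in 6 groups of 3: leaders of passage 1, leaders of passage 2, leaders of passage 3, leaders of passage 4, laggers of passage 1, and the parental line, which was grown in vitro and not injected. All 18 libraries carry the genotype label WT, the labels name no drug or other agent, and the animal that received the injections is not described in them. The labels do not state how the 3 replicates of a group relate to animals or cultures, so the p-values given here measure only the spread between these libraries.

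Gene totals were 15113462 to 31980851 counts in the injected libraries and 29005147 to 39373248 counts in the parental libraries. Reads aligned to several places took 20.2% to 32.6% of entries in the injected libraries and 13.9% to 16.4% in the parental libraries. Mitochondrial genes took 1.95% to 8.57% of gene counts in the injected libraries and 0.472% to 0.873% in the parental libraries. The keratins KRT8 and KRT18 and the intermediate filament gene VIM, all expected of the line, were counted in all 18 libraries. CDH1 and EPCAM, also read for the line, had 0 counts in the parental line. CDH1 was counted in 11 libraries, with 630 counts in passage 1 leaders, and EPCAM in 4. CDKN2A, a gene that this line is known to lack, was counted in 1. The part that these shares play in the results was not tested. Levels are given as CPM, which are counts put on a common library size after TMM scaling, a trimmed mean of log ratios between libraries. On this scale KRT8 averaged 2465 CPM in the parental line, 6291 CPM in laggers and 9580 CPM in passage 3 leaders.

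The promoters of the 4 genes whose levels set the pattern described here are shown first, from RefSeq on build GRCh38.p14, because each was called against the parental line in at least 3 of the 5 recovered groups, L1CAM as lower and NRCAM, ALCAM and NEO1 as higher. Each window holds the 250 bases before a transcript start and the 50 after it, read 5′ to 3′ on the strand of the gene. RefSeq windows were at hand for 8 of the 10 genes, 15 windows in all. Capitals mark matches, on either strand, to 6 motifs: AP-1 TGANTCA, CRE TGACGTCA, EGR1 GCGNGGGCG, NBRE AAAGGTCA, TATA box TATAAA and E-box CACGTG. For NRCAM, a CpG-rich start at chr7:108456387-108456686 (minus strand) and a CpG-poor internal start at chr7:108243336-108243635 (minus strand) are shown. Another internal NRCAM window, chr7:108328477-108328776 (minus strand), with 1 CpG and no match to the 6 motifs, is not shown. Nor is a further L1CAM window, chrX:153875965-153876264 (minus strand), with 8 CpG and no match. The NEO1 window is chr15:73051652-73051951 (plus strand), the ALCAM window chr3:105366659-105366958 (plus strand) and the L1CAM window chrX:153875895-153876194 (minus strand).
NRCAM, first start: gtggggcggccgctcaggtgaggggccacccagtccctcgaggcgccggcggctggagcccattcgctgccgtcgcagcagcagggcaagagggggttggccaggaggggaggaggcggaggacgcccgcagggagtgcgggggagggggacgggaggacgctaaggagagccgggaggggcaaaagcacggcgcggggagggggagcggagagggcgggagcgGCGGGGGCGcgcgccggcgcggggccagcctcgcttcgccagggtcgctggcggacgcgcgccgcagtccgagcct
NRCAM, internal start: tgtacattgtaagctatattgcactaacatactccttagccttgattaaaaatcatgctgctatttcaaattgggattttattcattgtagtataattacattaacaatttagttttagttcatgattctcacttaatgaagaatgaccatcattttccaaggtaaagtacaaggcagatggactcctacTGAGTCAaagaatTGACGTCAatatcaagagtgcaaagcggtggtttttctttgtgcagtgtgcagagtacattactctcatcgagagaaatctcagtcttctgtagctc
NEO1: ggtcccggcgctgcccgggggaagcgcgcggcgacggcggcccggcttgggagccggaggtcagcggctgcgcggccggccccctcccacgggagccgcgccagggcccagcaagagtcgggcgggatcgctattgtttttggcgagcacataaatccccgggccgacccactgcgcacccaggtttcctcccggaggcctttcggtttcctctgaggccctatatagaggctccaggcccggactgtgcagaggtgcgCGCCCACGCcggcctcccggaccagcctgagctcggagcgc
ALCAM: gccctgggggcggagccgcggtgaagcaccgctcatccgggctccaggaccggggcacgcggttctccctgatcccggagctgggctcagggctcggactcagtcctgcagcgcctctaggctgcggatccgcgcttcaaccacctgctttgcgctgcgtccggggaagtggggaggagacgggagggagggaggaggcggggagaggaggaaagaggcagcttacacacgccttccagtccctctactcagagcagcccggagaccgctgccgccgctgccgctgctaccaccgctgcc
L1CAM: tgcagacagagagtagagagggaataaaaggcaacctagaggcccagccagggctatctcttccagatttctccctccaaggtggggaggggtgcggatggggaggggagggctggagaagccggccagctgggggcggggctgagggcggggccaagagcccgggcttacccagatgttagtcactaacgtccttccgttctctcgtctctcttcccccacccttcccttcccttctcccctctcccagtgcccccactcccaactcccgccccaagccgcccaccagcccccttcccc

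The first NRCAM window holds 1 EGR1 match, at position -26 from the transcript start. The internal NRCAM window shown holds an AP-1 match at -60 and a CRE match at -47. The NEO1 window holds 1 EGR1 match, at position 10 after the start, written on the opposite strand. No match to the 6 motifs was found in the ALCAM and L1CAM windows. Over all 35116 promoters of the same length, 7.71% hold the AP-1 motif, 1.85% the CRE motif and 9.43% the EGR1 motif. The windows also differ in CpG content, with 38 CpG in the first NRCAM window, 35 in that of NEO1, 26 in that of ALCAM and 10 in that of L1CAM, against a median of 14 over all promoters. Both L1CAM windows are internal, since the annotated gene on GRCh38 begins at X:153886174 on the minus strand. They do not describe that end of the gene. A match is a description of these letters and no evidence of binding.

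L1CAM, the founding member of its family, had the highest mean level per length of exon among the 10 genes in every group. Its level was 4.43 ± 0.571 CPM per kb in passage 1 leaders (SD, n = 3, as for all levels here) and 13.0 ± 4.31 CPM per kb in the parental line. Summed over the 10 genes, the level per length was 13.8 ± 4.31 CPM per kb in the parental line, 8.50 ± 2.18 in leaders of passage 1, 10.9 ± 1.44 of passage 2, 12.8 ± 4.05 of passage 3 and 16.6 ± 4.23 CPM per kb of passage 4. In laggers the sum was 10.6 ± 4.35 CPM per kb. The make-up differed more than the sum did. L1CAM supplied 94.0% ± 1.97 of it in the parental line, 53.5% ± 7.73 in passage 1 leaders, 58.4% ± 2.13 in passage 2, 59.0% ± 6.57 in passage 3 and 76.8% ± 10.95 in passage 4, and 53.8% ± 8.00 in laggers. The share of NEO1 was 3.17% ± 0.954 in the parental line, 22.4% ± 1.98 in passage 1 leaders, 32.04% ± 1.87 in passage 2, 25.8% ± 6.09 in passage 3 and 11.2% ± 2.08 in passage 4. In laggers NEO1 supplied 18.9% ± 2.51. The highest share of L1CAM in any recovered library was 85.9%, in a passage 4 library, below the lowest in a parental library, 91.8%.

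**Figure D1:**
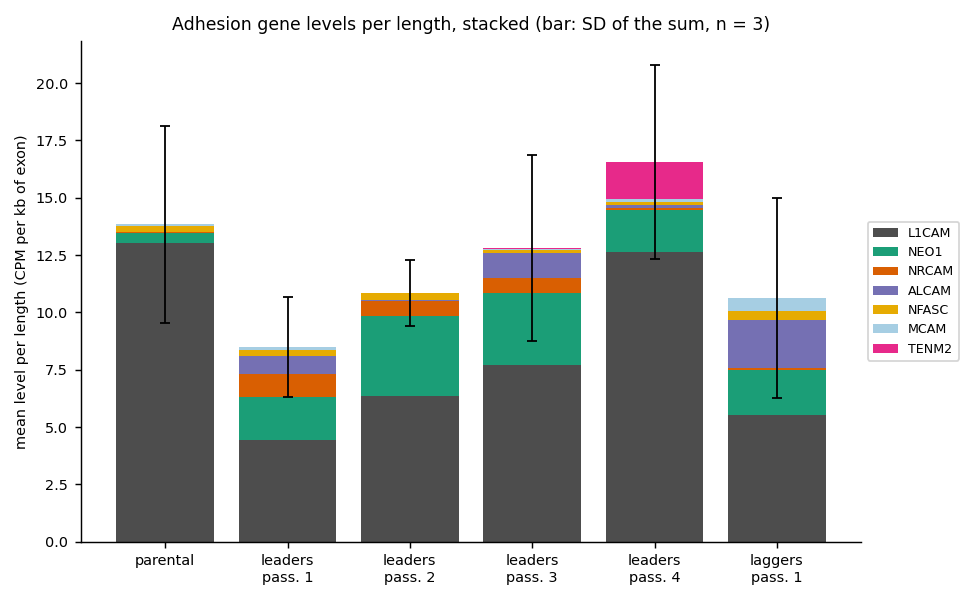
Stacked bars of the mean level per length (CPM per kb of exon, left axis) of 7 adhesion genes in the 6 groups of MiaPaCa-2 libraries, with the SD of the sum over 3 libraries as error bar. The parental bar is almost all L1CAM (94.0%), while NEO1, NRCAM and ALCAM take visible parts in recovered cells and TENM2 in passage 4 leaders.

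L1CAM (X:153861514-153886174, minus strand) stood at 71.3, 82.8 and 130.4 CPM in the parental line, passage 1 leaders had 33.8, 27.5 and 35.4 CPM, and passage 2 leaders 53.3, 41.4 and 43.8 CPM. At later passages it stood at 32.4, 60.7 and 74.9 CPM in passage 3 leaders and at 91.0, 68.0 and 116.7 CPM in passage 4 leaders. Laggers had 24.99, 44.8 and 50.7 CPM. All 9 libraries of laggers and of passage 1 and 2 leaders lay below every parental library, passage 3 overlapped the parental range at its upper end, and passage 4 overlapped it too. Relative to the parental line, L1CAM fell by 1.56 ± 0.33 on the log2 scale in passage 1 leaders (SE; adjusted p = 0.00123, edgeR quasi-likelihood test with Benjamini-Hochberg adjustment over 16187 genes, as for all adjusted p here). It fell by 1.04 ± 0.32 in passage 2 leaders (adjusted p = 0.0239) and by 1.24 ± 0.33 in laggers (adjusted p = 0.00693). The differences for passage 3 (log2 fold change -0.76, adjusted p = 0.0981) and passage 4 (-0.05, 95% interval -0.72 to 0.63, adjusted p = 0.937) did not pass the threshold of 0.05. Between leaders, passage 4 was higher than passage 1 in 3 of 3 libraries, by 1.51 ± 0.33 (adjusted p = 0.00479). The passage 2 call depends on single libraries: its adjusted p was 0.135 without parental replicate 3, 0.0804 without passage 2 replicate 2 and 0.0807 without replicate 3. L1CAM shares 359 bases of exon with LCA10 on the other strand and 439 with U52112.1, and the library kit does not mark strand. LCA10 had at most 0.0447 CPM in any library.

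NRCAM (7:108147623-108456717, minus strand), an L1 family member best known from the nodes of myelinated axons, had 29 counts in all in the parental line, and 586, 375 and 429 in leaders of passages 1, 2 and 3. Parental libraries had 0.348, 0 and 0.555 CPM, passage 1 leaders 7.88, 3.66 and 12.4 CPM, and passage 2 leaders 2.67, 7.64 and 5.75 CPM. Passage 3 leaders had 2.05, 3.52 and 10.8 CPM, and passage 4 leaders 1.34, 0.541 and 0.496 CPM. In laggers the levels were 1.04, 0.335 and 0.840 CPM. The 9 leader libraries of passages 1 to 3 lay above all 9 libraries of the other groups, and passage 4 leaders, laggers and the parental line overlapped. Against the parental line, NRCAM rose in leaders of passage 1 by 4.75 ± 0.94 (log2; adjusted p = 0.000771), of passage 2 by 4.18 ± 0.92 (adjusted p = 0.0032) and of passage 3 by 4.21 ± 0.93 (adjusted p = 0.0038). It did not pass the test in passage 4 leaders (1.42 ± 0.90, adjusted p = 0.258) or laggers (1.32 ± 0.91, adjusted p = 0.264). Passage 4 leaders were lower than passage 1 leaders in 3 of 3 libraries, with a log2 fold change of -3.34 ± 0.87 (adjusted p = 0.0138).

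Set against laggers of the same passage, passage 1 leaders averaged 7.97 ± 4.36 CPM of NRCAM and laggers 0.738 ± 0.363 CPM, with no overlap. The log2 fold change of 3.43 ± 0.89 had an adjusted p of 0.125 and so was not called. DESeq2 gave it an adjusted p of 0.00301, and edgeR without a filter on low counts 0.00741. Only these 2 of 12 alternatives called it, and the highest adjusted p among the 12 was 0.531. Leaving out a single library gave an adjusted p of 0.0983 to 0.253. Over the libraries summed, NRCAM had 586 counts in passage 1 leaders and 41 in laggers, a ratio of 11.3 with a counting interval of 8.20 to 15.9, which leaves out the spread between libraries.

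The size of the NRCAM changes rests on few parental counts, 29 in all. Without parental replicate 2, which had none, the log2 fold changes were 4.14, 3.59 and 3.61 for passages 1, 2 and 3, and without parental replicate 3 they were 5.46, 4.89 and 4.93. Without passage 3 replicate 3 the passage 3 value was 3.25, and without passage 4 replicate 1 the value of passage 4 over passage 1 was -3.93. The call between these passages was lost without passage 1 replicate 3 (adjusted p = 0.0535), passage 4 replicate 2 (0.0506) or passage 4 replicate 3 (0.0727).

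NFASC (1:204828651-205022822, plus strand), which encodes neurofascin, the partner of NRCAM at nodes, did not pass the test in any comparison. It ranged from 1.27 to 10.98 CPM over the 18 libraries, with 8.17, 1.93 and 6.06 CPM for passage 1 leaders, 8.03, 6.04 and 9.31 CPM for laggers and 5.95, 3.68 and 6.51 CPM for parental cells. The ranges of passage 2 leaders, 4.03 to 10.98 CPM, passage 3 leaders, 1.27 to 4.80 CPM, and passage 4 leaders, 1.72 to 5.54 CPM, overlapped these. Against the parental line its log2 fold changes ran from -0.67 in passage 3 leaders to 0.53 in laggers, with adjusted p of 0.427 to 0.994. CHL1 (3:196596-409417, plus strand), the close homolog of L1, had 1 count in a passage 4 library and 0 in the other 17. In the parental line, 0 counts over the 3 libraries allow a level of up to 0.0282 CPM, taking 3 counts as the limit, and such limits cover counting error only.

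NCAM1 (11:112961247-113278436, plus strand), the textbook neural adhesion molecule and carrier of polysialic acid, was at or near 0 throughout. It had 0 counts in the parental line, laggers and passage 1 leaders, 2 counts in passage 2 leaders, 2 in passage 3 leaders and 1 in passage 4 leaders. CADM1 (11:115169218-115504957, minus strand), a nectin-like adhesion molecule at synapses and epithelial contacts, had 0 counts in the parental line, 1 in passage 1 leaders, 1 in passage 2 leaders, 2 in passage 3 leaders and 6 in passage 4 leaders. Laggers had 1. Only in passage 4 leaders did all 3 libraries hold a CADM1 count, and their level of 0.0782 CPM has a counting interval of 0.0287 to 0.170 CPM. With no test for either gene, a difference was not detectable at this depth.

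ALCAM (3:105366909-105576900, plus strand), also named CD166, binds itself and the T cell receptor CD6 and guides growing axons. Its levels moved up and down between groups. Parental libraries had 0, 0 and 0.259 CPM, passage 1 leaders 5.70, 1.73 and 9.88 CPM, and passage 2 leaders 0.621, 0.234 and 0.147 CPM. Passage 3 leaders had 7.08, 7.09 and 8.62 CPM and passage 4 leaders 1.43, 0.0832 and 1.26 CPM. Laggers had the highest levels, 3.21, 25.96 and 16.5 CPM. Libraries of laggers and of passage 1 and 3 leaders lay above all 9 others, while passage 2 and 4 leaders overlapped the parental line. Against the parental line ALCAM rose by 7.63 ± 1.27 in laggers (log2; adjusted p = 0.000258), by 6.24 ± 1.23 in passage 1 leaders (adjusted p = 0.000722), by 6.63 ± 1.24 in passage 3 leaders (adjusted p = 0.00118) and by 3.60 ± 1.21 in passage 4 leaders (adjusted p = 0.0365). The passage 2 difference, 2.11 ± 1.30, was not called (adjusted p = 0.237). Because all 7 parental counts came from 1 library, ratios of summed counts are also given: 228 in laggers (counting interval 110.3 to 570), 91.0 in passage 1 leaders (43.8 to 228) and 118 in passage 3 leaders (57.0 to 296).

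Single libraries move the size of these ALCAM values, parental replicate 3 the most. Without it they were 11.55 in laggers, 10.16 in passage 1 leaders, 10.56 in passage 3 leaders and 7.52 in passage 4 leaders, on the log2 scale. Without parental replicate 1 the same values were 6.96, 5.56, 5.97 and 2.91, and without parental replicate 2 they were 6.998, 5.60, 6.01 and 2.95. Leaving out lagger replicate 2 gave 6.99, and leaving out passage 1 replicate 3 gave 5.60. The passage 4 call was lost without parental replicate 1 (adjusted p = 0.12), parental replicate 2 (0.108), passage 4 replicate 1 (0.103) or passage 4 replicate 3 (0.0829). Between leaders of passages 4 and 1 the difference of -2.64 ± 0.96 was not called (adjusted p = 0.0621), although the libraries did not overlap.

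MCAM (11:119308529-119321521, minus strand), also named CD146, marks endothelial cells and pericytes and is an adhesion molecule of melanoma. It was low, with 1.02, 0.587 and 0.0740 CPM in parental libraries, 0.515, 0.891 and 1.79 CPM in passage 1 leaders and 0.0477, 0.234 and 0.0369 CPM in passage 2 leaders. Passage 3 leaders had 0.443, 0.107 and 0.562 CPM, and passage 4 leaders 1.47, 0.416 and 0.628 CPM. In laggers it had 0.520, 10.1 and 2.24 CPM, so that replicate 2 stood far above the rest and the lowest lagger library fell within the parental range. The lagger level was called higher than the parental one, by 2.91 ± 1.003 on the log2 scale (adjusted p = 0.0301). Lagger replicate 2 decides this: without it the value was 1.25 with an adjusted p of 0.348. The call was also lost without parental replicate 2 (adjusted p = 0.077) or parental replicate 3 (2.41, adjusted p = 0.091), and without parental replicate 1 the value was 3.56. With the replicate number as a block over all 18 libraries, MCAM had 2.80 and an adjusted p of 0.0644. The pairing check, which rests on the data alone, passed for laggers and the parental line but in no other comparison. That block thus also joins libraries that did not pass it. With the compared groups alone, MCAM had 2.88 and an adjusted p of 0.0983. In lagger replicate 2 the summed level of 7 endothelial markers was 0.240 CPM and that of 6 pericyte and smooth muscle markers 152 CPM. Both sums were the lowest among laggers, but the single pericyte markers went in different directions. That library had the lowest RGS5 of the laggers, 23.3 CPM, and the highest NOTCH3, 102 CPM. The part of such cells in the MCAM level was not tested. MCAM shares 509 exon bases with CBL on the other strand, which cannot be told apart without strand; CBL averaged 33.1 ± 6.57 CPM in laggers and 39.1 ± 5.47 CPM in the parental line.

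**Figure D2:**
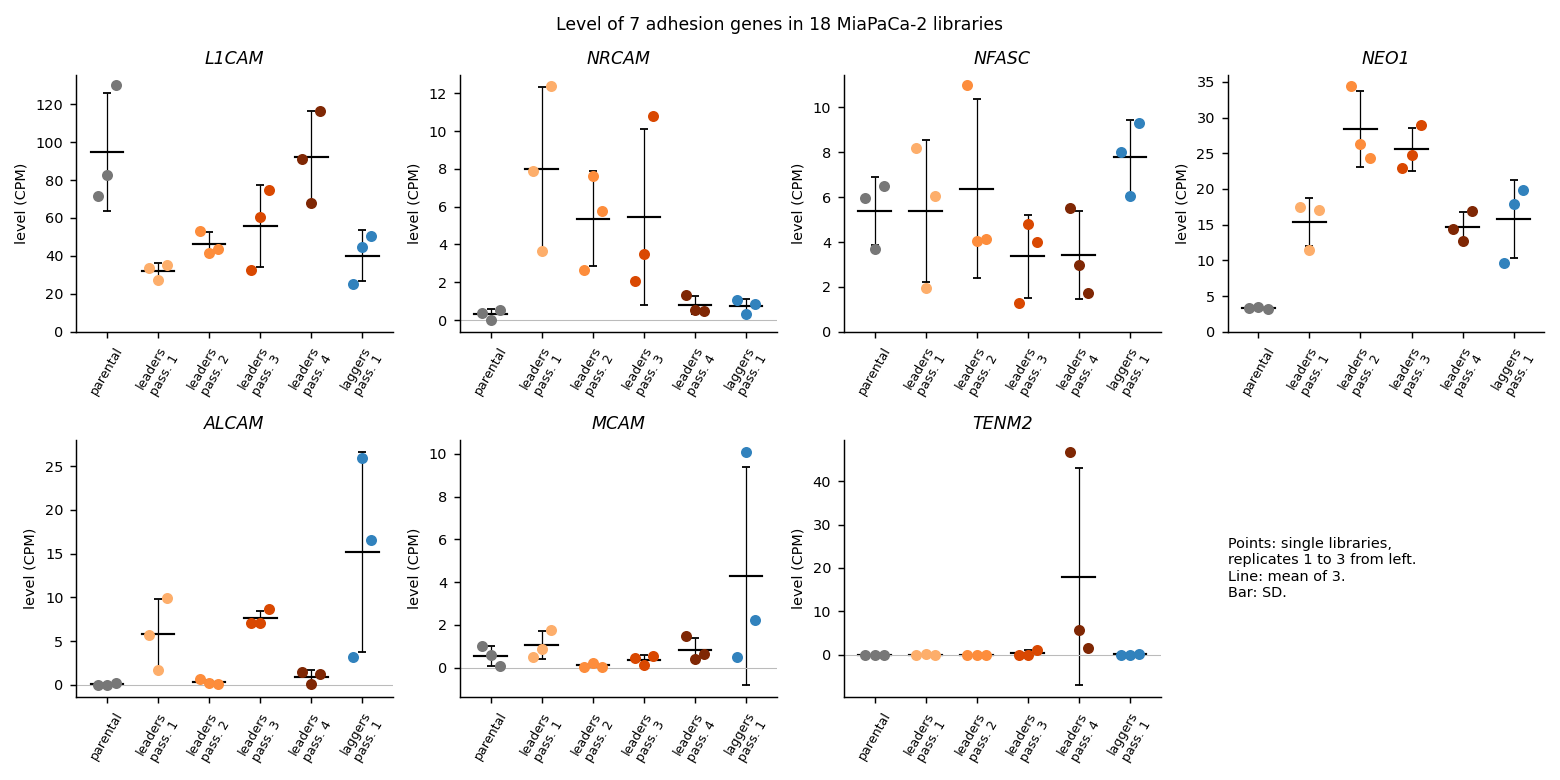
Level (CPM, vertical axis of each panel) of the 7 tested adhesion genes in each of 18 libraries, by group, with the line at the mean of 3 and the bar giving the SD. L1CAM is lowest in passage 1 leaders, NRCAM is high in leaders of passages 1 to 3, ALCAM in laggers and leaders of passages 1 and 3, and TENM2 in passage 4 leaders, where 1 library reaches 46.8 CPM.

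TENM2 (5:167284799-168264157, plus strand) encodes teneurin 2, a large transmembrane protein that binds latrophilins across synapses. It had no count in the parental line and none in passage 2 leaders, and 2 counts in passage 1 leaders and 3 in laggers, each from 1 library. Passage 3 leaders had 0, 1 and 35 counts, and passage 4 leaders 1049, 135 and 47 counts, or 46.8, 5.62 and 1.55 CPM. Every passage 4 library thus lay above every library of the other groups, with a 30.2-fold range among the 3. Over the group, passage 4 leaders were at least 569-fold higher than the parental line, set against 3 counts over the parental libraries, and at least 119-fold higher without passage 4 replicate 1. TENM2 was called higher in passage 4 leaders than in the parental line (adjusted p = 0.00259) and than in passage 1 leaders (adjusted p = 0.00698). Against passage 1 leaders the ratio of summed counts was 574 (counting interval 158 to 4742), and 120 (32.7 to 997) without passage 4 replicate 1. The fitted log2 fold change from passage 1, 9.06 ± 1.94, was 6.71 without that library, 11.83 without passage 1 replicate 2 and 8.46 without passage 1 replicate 1. In passage 3 leaders the gene was not called (adjusted p = 0.0744), and 35 of the 36 counts came from replicate 3.

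NEO1 (15:73051710-73305206, plus strand) encodes neogenin, a receptor for netrins and repulsive guidance molecules related to DCC. It was higher in all 15 recovered libraries than in any parental one. Its levels were 3.38, 3.45 and 3.18 CPM in parental libraries, 17.5, 11.5 and 17.0 CPM in passage 1 leaders and 34.5, 26.3 and 24.4 CPM in passage 2 leaders. Passage 3 leaders had 23.0, 24.7 and 28.9 CPM, passage 4 leaders 14.4, 12.7 and 16.9 CPM, and laggers 9.64, 17.9 and 19.9 CPM. Libraries of passages 2 and 3 lay above all others, with those of passages 1 and 4 and of laggers in one overlapping range below them. NEO1 rose against the parental line by 2.20 ± 0.27 in passage 1 leaders (log2; adjusted p = 1.5e-05), 3.09 ± 0.28 in passage 2 (2e-06), 2.93 ± 0.28 in passage 3 (3e-06) and 2.13 ± 0.27 in passage 4 (4.3e-05). In laggers it rose by 2.24 ± 0.27 (adjusted p = 1.8e-05). The comparisons with the parental line share its 3 libraries, so these values are not independent of each other. Passage 1 leaders and laggers had a difference of -0.04 with a 95% interval of -0.59 to 0.51 (adjusted p = 0.947), and passages 4 and 1 of -0.07 with an interval of -0.61 to 0.48 (adjusted p = 0.886).

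**Figure D3:**
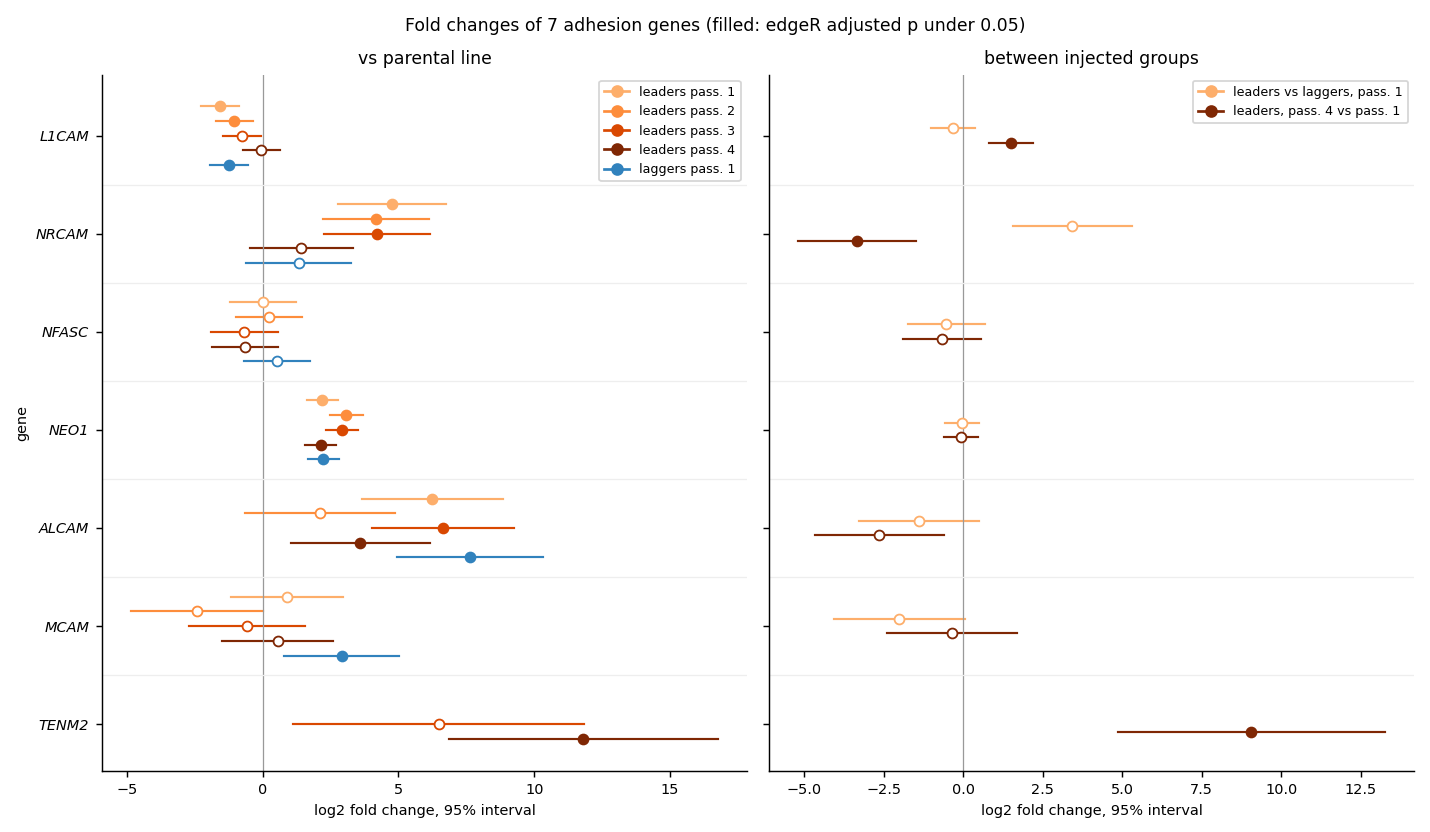
Log2 fold change with its 95% interval (horizontal axis) of 7 adhesion genes (vertical axis), for 5 recovered groups against the parental line on the left and for passage 1 leaders against laggers and passage 4 against passage 1 leaders on the right. Filled points have an edgeR adjusted p under 0.05; NEO1 is filled in all 5 parental comparisons, NFASC in none, and the TENM2 points depend on how a parental level of 0 is fitted.

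Counted by comparison, no member was called between passage 1 leaders and laggers, where 0.0618% of all 16187 genes were called by edgeR. There 1 of the 7 tested members had an unadjusted p under 0.05, and so did 2338 of all genes. DESeq2 and edgeR without the filter each called 1 member, NRCAM. In laggers, 3 members were higher than in the parental line and 1 was lower, while 21.5% of all genes were higher and 17.8% lower. In passage 1 leaders, 3 were higher and 1 was lower, beside 23.2% and 22.4% of all genes. Passage 2 leaders had 2 higher and 1 lower (all genes, 15.1% and 14.8%), passage 3 leaders 3 higher and none lower (13.8% and 10.8%), and passage 4 leaders 3 higher and none lower (14.8% and 12.9%). Between leaders of passages 4 and 1, 2 members were higher and 1 was lower, with 10.8% of all genes higher and 9.17% lower. With 7 tested genes, each member moves such a share by 1 in 7, and nothing particular to them is read from it. Members passed the filter on low counts partly through the groups where they are high, so these counts are a description. The median log2 fold change against the parental line, over members with counts above the limit in a group, was 1.78 in laggers, 1.55 in passage 1 leaders, 1.18 in passage 2, 2.93 in passage 3 and 1.42 in passage 4 leaders. Over all genes it lay between 0.00 and 0.09. The member medians cover 6 members in laggers and in passages 1 and 2, and 7 in passages 3 and 4. They carry the same limit from the filter. Single values in laggers ran from -1.24 for L1CAM to 7.63 for ALCAM, and no shared shift is read from the medians.

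Steps from one leader passage to the next were compared after the values had been seen. From passage 1, ALCAM was lower in passage 2 leaders, with a log2 fold change of -4.12 ± 1.07 (adjusted p = 0.0435), while 3.58% of all genes were called. This was the 1 member called in any step, and the call was lost on leaving out any single library of the 2 groups (adjusted p of 0.0504 to 0.17), with values of -4.90 without passage 2 replicate 1 and -3.49 without passage 1 replicate 3. ALCAM was again higher in passage 3 than in passage 2 by 4.52 ± 1.08, and lower in passage 4 than in passage 3 by a log2 fold change of -3.03 ± 0.97. Neither step passed the test (adjusted p = 0.175 and 0.172), and the libraries did not overlap in either. Of all genes, 0.0124% were called in passage 3 against passage 2 and 1.39% in passage 4 against passage 3. In passage 4 against passage 3, NRCAM (-2.79 ± 0.86), NEO1 (-0.80 ± 0.26) and TENM2 (5.33 ± 1.48) also had ranges that did not overlap. They were not called, with adjusted p of 0.149, 0.176 and 0.125. The same held for L1CAM, MCAM and NEO1 in passage 2 against passage 1, with adjusted p of 0.372, 0.115 and 0.0666. Ranges of 3 libraries can part by chance. The share of all genes whose ranges parted was not counted, so nothing is read from the missing overlap.

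A list of 64 genes that work with these molecules, of which 41 were tested, was read beside them: paralogs, ligands and coreceptors, cytoplasmic partners, and enzymes of shedding and glycosylation. Against the parental line, 12 of the 41 were higher and 8 lower in passage 1 leaders, where 23.2% of all genes were higher and 22.4% lower. The counts were 7 and 6 in passage 2 (all genes, 15.1% and 14.8%), 11 and 6 in passage 3 (13.8% and 10.8%), 9 and 4 in passage 4 (14.8% and 12.9%), and 9 and 7 in laggers (21.5% and 17.8%). Between passage 4 and passage 1 leaders, 10 were higher and 2 lower, beside 10.8% and 9.17% of all genes. Between passage 1 leaders and laggers edgeR called none, with 11 at an unadjusted p under 0.05. These counts are a description, and nothing particular to the list is read from them. The median log2 fold change of those with counts above the limit was 0.06 in passage 1 leaders, 0.28 in passage 2, 0.37 in passage 3 and 0.36 in passage 4, and 0.02 in laggers, beside the 0.00 to 0.09 over all genes.

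Among paralogs, CADM2, a relative of CADM1 found in brain, rose strongly. It averaged 0.0625 ± 0.0328 CPM in parental libraries, 2.22 ± 1.45 CPM in passage 1 leaders, 29.6 ± 3.11 CPM in passage 2, 19.8 ± 4.92 CPM in passage 3 and 23.4 ± 4.47 CPM in passage 4. CADM2 had a log2 fold change against the parental line of 5.0025 ± 0.71 in passage 1 leaders (adjusted p = 4.8e-05), 8.72 ± 0.74 in passage 2 (8.5e-07), and 3.38 ± 0.53 in passage 4 against passage 1 leaders (0.000521). Laggers had 5.28 ± 3.30 CPM, a rise of 6.22 ± 0.71 over the parental line. BCAM, a laminin-binding relative of MCAM, fell in laggers by 2.89 ± 0.44 on the log2 scale, to 13.9 ± 7.42 CPM in laggers against 103 ± 35.5 CPM in the parental line. NCAM2 had 28 counts in passage 1 leaders and 54 in laggers, against 0 in the parental line.

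Ligands and coreceptors moved in both directions. FGFR1, the growth factor receptor that L1CAM and NCAM1 can engage, averaged 195 ± 66.4 CPM in parental libraries, 732 ± 87.5 CPM in passage 1 leaders, 985 ± 77.1 CPM in passage 2, 1487 ± 476 CPM in passage 3 and 1887 ± 574 CPM in passage 4. Its log2 fold change against the parental line was 2.34 ± 0.35 in passage 2 leaders, 2.93 ± 0.36 in passage 3 and 3.27 ± 0.36 in passage 4 (adjusted p = 1.2e-05 in passage 4). LAMA4, a laminin chain bound by MCAM, was lower in passage 1 leaders at 0.687 ± 0.648 CPM, against 52.9 ± 3.17 CPM in the parental line (log2 fold change -6.22 ± 0.86). The NEO1 ligand RGMB rose in passage 4 leaders by 2.46 ± 0.41 (adjusted p = 0.000411). NTN4, a netrin, had 794 counts in passage 1 leaders and 27 in passage 4 leaders, against 1 in the parental line, and was lower in passage 4 than in passage 1 leaders (log2 fold change -5.05 ± 0.83, adjusted p = 0.000767). The latrophilins that bind teneurins differed among themselves. ADGRL3 had 1 count in the parental line, 385 in passage 1 leaders, 97 in passage 2, 528 in passage 3 and 2103 in passage 4, and was higher in passage 4 than in passage 1 leaders by 2.33 ± 0.63 (adjusted p = 0.0158). Against that 1 parental count, the ratio of summed counts in passage 4 leaders was 2918, with a counting interval of 523 to 115308. Laggers had 294 ADGRL3 and 369 NTN4 counts. ADGRL2 had 22 counts in the parental line, 330, 98, 907 and 112 in leaders of passages 1 to 4, and 1086 in laggers. Lagger libraries ranged from 3.21 to 38.8 CPM of ADGRL2. ADGRL1 did not pass the test against the parental line in any group.

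**Figure D4:**
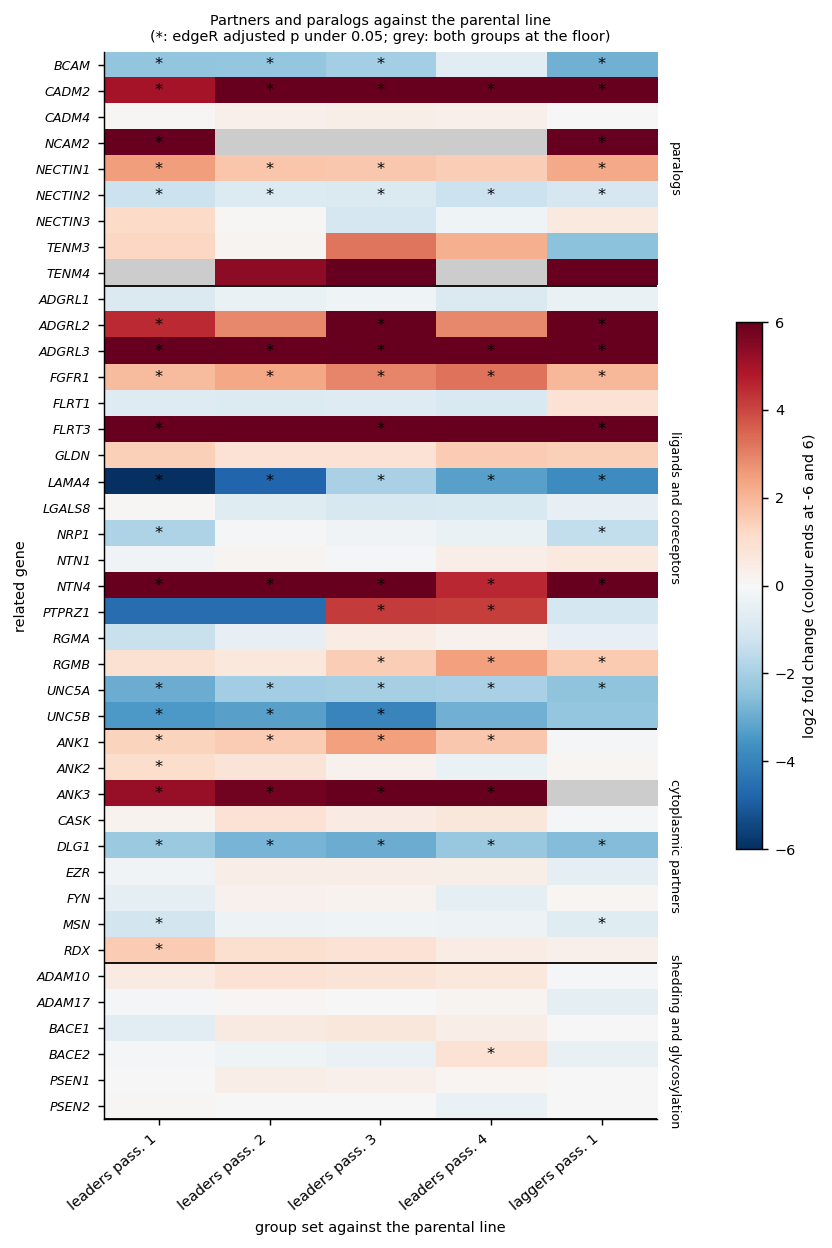
Log2 fold change against the parental line (colour, ending at -6 and 6) of the 41 tested partner genes (rows, by role) in 5 recovered groups (columns), with a star where the edgeR adjusted p was under 0.05 and grey where both groups held at most 3 counts. CADM2, ADGRL3, FGFR1 and NTN4 carry a star in all 5 columns as higher, and DLG1, LAMA4, NECTIN2 and UNC5A as lower.

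Cytoplasmic partners include the scaffold DLG1, which fell in passage 2 leaders by 2.79 ± 0.42 on the log2 scale, to 36.6 ± 1.23 CPM, against 253 ± 90.8 CPM in the parental line, with a log2 fold change of -2.99 ± 0.43 in passage 3 leaders. The ankyrin ANK3 had 0 counts in the parental line, 12, 18, 211 and 48 counts in leaders of passages 1 to 4, and 0 in laggers. Set against 3 parental counts, it was at least 112-fold higher in passage 3 leaders. ANK2 was lower in passage 4 than in passage 1 leaders (log2 fold change -1.45 ± 0.34, adjusted p = 0.00712), and MSN, the ezrin-family protein moesin, was higher by 0.77 ± 0.16 (adjusted p = 0.00327). ADAM10 and ADAM17, which shed L1CAM and other members, did not pass the test against the parental line in any group. ADAM10 averaged 451 ± 60.6 CPM in passage 1 leaders and 321 ± 125 CPM in the parental line. BACE2 rose in passage 4 leaders by 0.86 ± 0.30 (adjusted p = 0.0455), and BACE1 was higher in passage 4 than in passage 1 leaders by 1.03 ± 0.28 (adjusted p = 0.0163).

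Genes whose 6 group means followed a member most closely were looked up among 14277 genes with a proper name, by the root-mean-square (RMS) difference of centred log2(CPM + 0.5) profiles over the 6 groups. For NEO1 these were EIF4E3 (RMS 0.0877), EGR1 (0.145) and DDR1 (0.157), with a median over all candidates of 1.003. For NRCAM they were EPN3 (0.216), BTBD16 (0.224) and CDS1 (0.243). ALCAM had no close match, with RTL1 at 0.607, LPHN2, an older name of ADGRL2, at 0.653 and LINC00473 at 0.807. TENM2 was nearest to CTSV (0.312), PLXNA1 (0.357) and HLA-DRB5 (0.374), and MCAM to BTN2A3P (0.199), LRRFIP1P1 (0.217) and GABBR1 (0.255). L1CAM and NFASC spanned under 2 log2 units and were left out.

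Markers of cells that a nerve could hold were summed in each library, since such cells carry several of these adhesion genes, and in bulk RNA fewer cells of a type and less RNA per cell cannot be told apart. All 10 Schwann cell markers had an entry. Their sum was 28.8 to 89.5 CPM in the recovered groups and 233 to 270 CPM in the parental line, where it was mostly MBP, while FOXD3 was at 0 in all libraries. The 10 fibroblast markers summed to 1028 to 2369 CPM in passage 1 leaders, 325 to 565 CPM in passage 4 leaders, 1317 to 2241 CPM in laggers and 205 to 392 CPM in the parental line. Of the 8 tested, 5 were higher in passage 1 leaders than in the parental line and 2 were lower. COL3A1, among the higher ones, averaged 952 ± 370 CPM in passage 1 leaders and 7.07 ± 2.91 CPM in the parental line. The lower ones were COL1A1, with 17.9 ± 15.4 CPM in passage 1 leaders and 160 ± 70.5 CPM in the parental line, and FBLN1, with 46.8 ± 23.5 CPM in passage 1 leaders and 101 ± 32.5 CPM in the parental line. Over the 18 libraries DPT had 9 counts and THY1 79 counts. The 6 pericyte and smooth muscle markers summed to 532 to 1612 CPM in leaders of all passages, 152 to 505 CPM in laggers and 113 to 186 CPM in the parental line. RGS5 made up most of this in leaders, where it averaged 864 ± 603 CPM in passage 1, while in the parental line it averaged 22.3 ± 8.83 CPM and NOTCH3 114 ± 44.8 CPM. The 7 endothelial markers with an entry summed to between 0.240 and 13.5 CPM with ERG at 0. The 7 leukocyte markers summed to 10.8 to 35.1 CPM in passage 4 leaders and 1.76 to 5.51 CPM in the parental line. In the other groups this sum overlapped the parental range. It was mostly ITGAM in passage 4 leaders, with 20.9 ± 12.8 CPM against 2.24 ± 1.44 CPM in the parental line. CD68 and CD14 were lower there, at 0.105 and 0.0518 CPM against 0.731 and 0.256 CPM in the parental line. PTPRC averaged 0.675 CPM in passage 4 leaders and had 0 counts in the parental line. The 6 neuron markers summed to 7.13 to 10.9 CPM in laggers and 4.90 to 11.4 CPM in passage 1 leaders. Parental libraries had 2.78 to 3.85 CPM of them, overlapped by passages 2 and 3, and passage 4 leaders had less, 0.595 to 1.71 CPM. The fibroblast sums lay above all parental ones except in passage 4 leaders, which overlapped them, and the pericyte sums did so except in laggers. Members differed in how their levels lay beside these sums. Laggers averaged 0.738 ± 0.363 CPM of NRCAM and 15.2 ± 11.4 CPM of ALCAM. Their median fibroblast sum was 1356 CPM and their median pericyte sum 268 CPM. Passage 2 leaders averaged 0.334 ± 0.252 CPM of ALCAM with medians of 1044 and 1207 CPM. NEO1 and the pericyte sum were both highest in passage 2 leaders, at a mean of 28.4 CPM and a median of 1207 CPM. Both were lowest in the parental line, at 3.34 and 131 CPM. Laggers and passage 4 leaders averaged 15.8 and 14.7 CPM of NEO1, with pericyte medians of 268 and 798 CPM. The part of such cells in these results was not tested.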

How the data were processed

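Low-input RNA of 18 libraries was amplified by a kit that leaves strand unmarked, then read from both ends, per the labels. The values are raw counts of each gene as deposited by the authors. The submitters' processing notes name STAR 2.5.0a, HTSeq 0.5.3, cutadapt 1.6 and DESeq 1.22.1. The authors' genome build and gene models were not given in the sources used. Positions and exon lengths come from GENCODE 29 (GRCh38), which held 51812 of the 57445 gene identifiers. The 5 entries that name no gene were left out.

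Counts were tested with edgeR 4.0.16 in R 4.3.3: 1 quasi-likelihood fit of all 18 libraries, a mean per group, TMM scaling, the edgeR expression filter (16187 genes kept, 41258 not tested), and Benjamini-Hochberg adjustment within a comparison over all tested genes, called at 0.05. The common dispersion was 0.126, with 12 residual degrees of freedom. Ratios of summed counts carry exact 95% intervals. The scripts were tested on simulated data. Replicate libraries differed beyond counting error.

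Alternatives were DESeq2 1.42.0, voom of limma 3.58.1, DESeq2 size factors in edgeR, no filter and the compared groups alone. A replicate block over all 18 libraries and leaving out each library were run too. Deviations of same-numbered libraries correlated at 0.203, 0.185 and 0.564 between laggers and the parental line, all above 0.1, so these numbers were taken as pairs from the data alone; in no other comparison did every pair pass.

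All 10 members are named. Of the related genes, up to 4 per comparison with the smallest adjusted p among those called are named, besides partners, paralogs and enzymes of a member. Members and lists were chosen with earlier results of these data known. Steps between successive passages were added after the values were seen.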

Additional observations from a re-analysis of the deposited data

Results flagged for a closer look

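Between groups of recovered cells, 4 differences of members passed the test of the difference itself. L1CAM was higher in passage 4 than in passage 1 leaders (log2 fold change 1.51), and TENM2 was higher (9.06). NRCAM was lower in passage 4 than in passage 1 leaders (-3.34). ALCAM was lower in passage 2 than in passage 1 leaders (-4.12), a difference that no alternative leaving out a single library kept under 0.05. Groups of 3 are too small for the check on single outlying libraries.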

How the results depend on the processing

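Of the alternatives run for members called in the analysis as reported, 226 kept direction and call, 25 lost the call and none reversed; among those not called, 473 stayed so, 18 gained a call and 32 changed sign, none of these with a call under either setting. DESeq2 called 1 member for passage 1 leaders against laggers, 3 for passage 2 against 1, 1 for passage 3 against 2 and 2 for passage 4 against 3. Without the filter on low counts, 1 was called for passage 1 leaders against laggers, 1 for passage 3 against 2 and 3 for passage 4 against 3. The compared groups alone gave 3 for passage 2 against 1 and 1 for passage 3 against 2, voom and the replicate block gave 0 for passage 2 against 1, and leaving out a library gave 0 to 0. The cause was not tested.

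Signs changed as follows, in log2. NEO1 for passage 1 leaders against laggers was 0.033 with voom, 0.045 without the filter and 0.027 with the compared groups alone. NFASC in passage 1 leaders against the parental line was -0.12 with voom, -0.0292 without the filter and -0.078 with the replicate block. NRCAM for passage 3 against 2 was -0.0929 with voom and -0.28 with the block, and NFASC for passage 4 against 3 was -0.0224 and -0.17. On leaving out 1 library, ranges against the parental line were -0.43 to 0.47 (NFASC, passage 1), -0.40 to 0.49 (NFASC, passage 2), -1.08 to 0.092 (MCAM, passage 3), -0.12 to 1.21 (MCAM, passage 4) and -0.25 to 0.25 (L1CAM, passage 4). NEO1 ranged from -0.21 to 0.20 for leaders against laggers, from -0.26 to 0.045 for passage 4 against 1 and from -0.25 to 0.011 for passage 3 against 2. MCAM ranged from -1.01 to 0.26 for passage 4 against 1, NRCAM from -0.94 to 0.42 for passage 3 against 2, and NFASC from -0.40 to 0.67 for passage 2 against 1 and from -0.52 to 0.37 for passage 4 against 3.

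With voom, the calls of MCAM in laggers (adjusted p = 0.0749), ALCAM in passage 4 leaders (0.17) and ALCAM in passage 2 against 1 (0.103) were lost, and with the compared groups alone that of MCAM in laggers (0.0983). ALCAM for passage 4 against 1 was called by DESeq2 (0.023), without the filter (0.0132) and without passage 1 replicate 2 (0.0458), and TENM2 in passage 3 against the parental line without the filter (0.00753). MCAM (0.035) and NEO1 (0.0183) for passage 2 against 1 were called by DESeq2. By the labels, libraries share only a replicate number in every comparison. Between laggers and the parental line 2 of 3 correlated best with their own number, and elsewhere 0 or 1 of 3 did. Beside MCAM, the block lost ALCAM for passage 2 against 1 (0.0711) and changed no other call of a member.

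Counts over all genes moved by over 1.5 times under some settings: 6363 for laggers against the parental line had a range of 3355 to 6517, 4846 for passage 2 of 3167 to 5660, 3976 for passage 3 of 2491 to 4769, 3237 for passage 4 against 1 of 1512 to 4155, 579 for passage 2 against 1 of 38 to 2147, 225 for passage 4 against 3 of 42 to 590, 10 for leaders against laggers of 0 to 365, and 2 for passage 3 against 2 of 0 to 137. Of genes called between leaders and laggers, 3 of 10 were higher, against 189 of 365 with DESeq2. Genes with few counts, TENM2, ALCAM and MCAM in the parental line among them, are limited by depth.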
